A study of Arabidopsis thaliana with 6 samples.

Results

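The 8 genes described here make, supply or remove nitric oxide (NO) in *Arabidopsis thaliana*, and they were taken by gene identifier from the 24340 genes of the expression table. They are the phytoglobins *GLB1* (AT2G16060), *GLB2* (AT3G10520) and *GLB3* (AT4G32690), the S-nitrosoglutathione reductase gene *GSNOR* (AT5G43940), the nitrate reductase genes *NIA1* (AT1G77760) and *NIA2* (AT1G37130), the nitrite reductase gene *NIR1* (AT2G15620) and *NOA1* (AT3G47450). The rule uses gene identifiers and no measured value, though the genes were chosen with earlier results of these data known, and all 8 passed the filter on low values that left 18966 genes for testing. Messenger RNA was sequenced from shoot apices of *ap1, cal* double mutant plants in the Col-0 background, with 3 biological replicates in each of 2 groups. Every plant received a solution with 0.025% of the wetting agent Silwet, which held 1 mM sodium nitroprusside (SNP) in the SNP group and none in the Mock group, and apices were collected after 24 h. SNP is an NO donor whose breakdown also frees cyanide and iron, and no group received the breakdown products alone. The double mutant overproduces inflorescence meristems that stall before making flowers, so the libraries came from bulk apices of 1 genotype, and how many plants went into each library is not given in the sources used here.

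NO in plants arises in part from nitrite, which nitrate reductase forms from nitrate and can itself reduce further to NO. Nitrite reductase competes for the same nitrite in the plastid and carries it to ammonium. NO is removed by phytoglobins, which oxidize it to nitrate with the help of bound oxygen, and by binding to glutathione, whose nitrosylated form is broken down by S-nitrosoglutathione reductase. In the shoot, these steps link NO to nitrate supply and oxygen supply.

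Levels are given as TPM, a measure that scales reads by gene length and library total so that levels of different genes can be set side by side. The libraries held between 51879530 and 99089586 reads, read from the steps of the TPM values. Meristem markers were present in every library, with a summed level of 246 to 296 TPM for 6 markers in Mock and 249 to 286 TPM in SNP. Of these 6, *UFO*, a gene of the meristem periphery and floral meristem, rose from a mean of 14.3 to 22.9 TPM (log2 difference 0.68, limma adjusted p = 0.0149), and none of the other 5 passed. The 4 floral organ markers summed to 16.4 to 23.5 TPM in Mock and to 6.16 to 15.0 TPM in SNP, with none past the test, and the part of this difference in the results below was not tested. Of 4 root markers 2 had a row, *IRT1* was at 0 in 5 libraries and at 0.0172 TPM in the other, and *WOX5*, a homeobox gene of the root stem cell niche, rose from 0.237 to 0.532 TPM in Mock to 2.21 to 4.11 TPM in SNP. The mutated gene *CAL* was still transcribed, at 29.6 to 34.6 TPM in Mock and 22.1 to 25.1 TPM in SNP. It was lower in SNP (log2 difference -0.38, limma adjusted p = 0.0314). The mutated gene *AP1* was at 2.49 to 3.41 TPM in Mock and 1.82 to 2.57 TPM in SNP and did not pass. The photosynthetic markers *RBCS1A* and *LHCB1.3* summed to 4113 to 4685 TPM in Mock and 4358 to 5041 TPM in SNP, and neither passed. In bulk samples, fewer cells of a type and less RNA per cell cannot be told apart.

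After 24 h of SNP, *GLB1* rose 7.78-fold and *GLB2* fell, and none of the other 6 genes passed an adjusted p of 0.05. The test was limma on log2(TPM + 0.5), with p-values adjusted over all 18966 genes by the Benjamini-Hochberg method. With 1 gene higher and 1 lower among 8, the counts stood beside 16.6% of all tested genes that were higher and 13.0% that were lower. A criterion of at least 1.5-fold and an unadjusted p under 0.01 gave the same 1 gene higher and 1 lower, beside 10.5% and 6.40% of all tested genes. The groups did not overlap for 3 of the 8 genes (*GLB1*, *GLB2* and *GLB3*), while 51.2% of all tested genes had groups that did not overlap. The median difference over the 8 genes was 0.055 on the log2 scale and that over all tested genes was 0.056, with 4 of the 8 means higher in SNP and 4 lower. Counts this near the shares in the whole table are not a result about the 8 genes as a group.

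**Figure D1:**
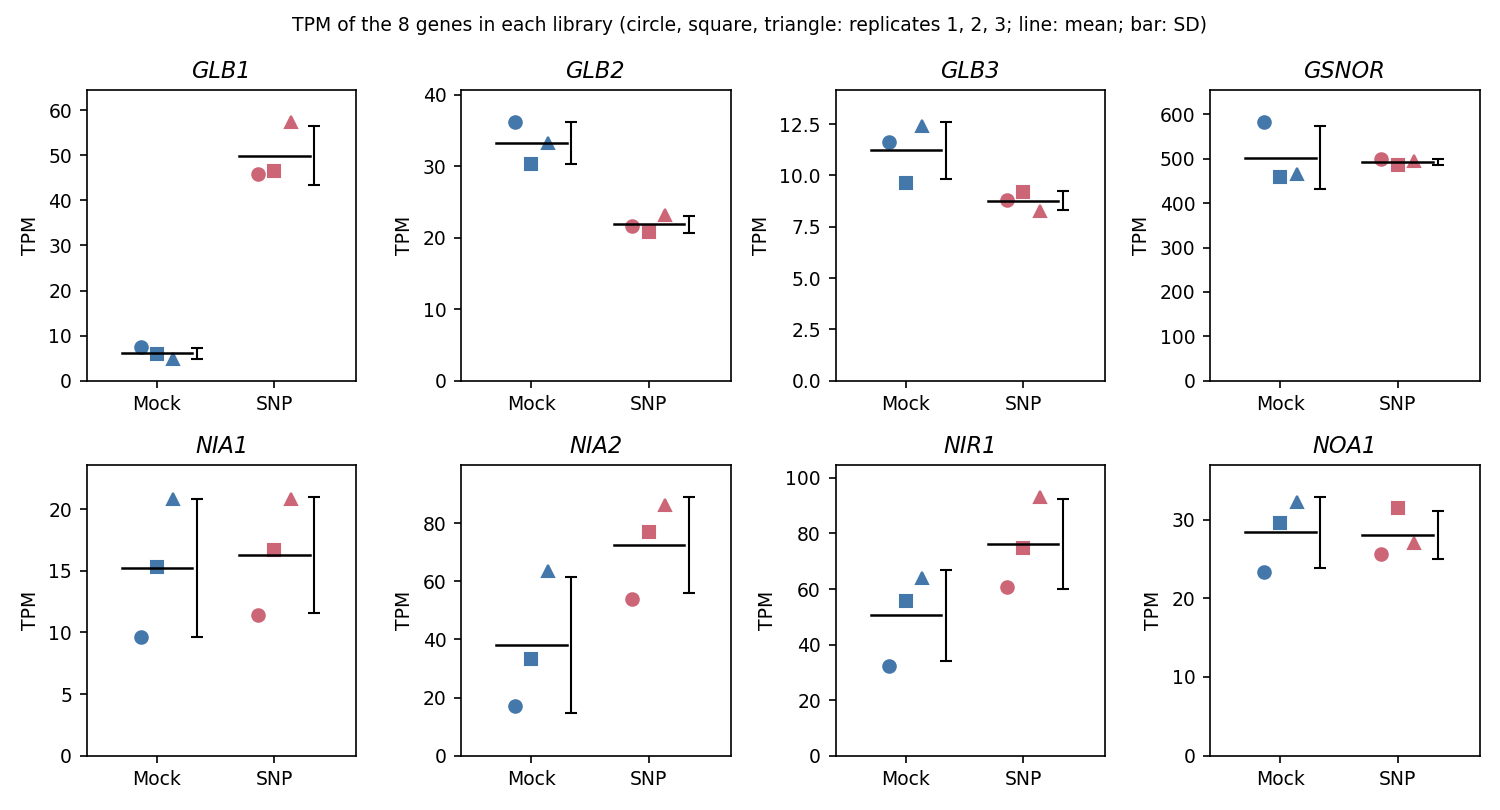
TPM of each of the 8 genes in the 6 libraries, on a linear axis from 0, with circles, squares and triangles for replicates 1, 2 and 3, a line for the group mean and a bar for the SD. *GLB1* lies at 4.80 to 7.42 TPM in Mock and 45.8 to 57.5 TPM in SNP, whereas the reductase genes *NIA1*, *NIA2* and *NIR1* spread widely within each group.

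*GLB1* encodes the class 1 phytoglobin, a protein with a very high affinity for oxygen that turns NO into nitrate, and whose transcript is known to respond to low oxygen and to nitrate. The gene lies at chr2:6982531-6983777 on the minus strand and has 4 exons (positions here and below are from the TAIR10.1 annotation, matched by gene identifier). It was at 7.42, 5.89 and 4.80 TPM in the Mock libraries and at 45.8, 46.5 and 57.5 TPM in the SNP libraries. Every SNP library was therefore above every Mock library by a wide margin, and the largest ratio within a group was 1.55. The Mock mean was 6.03 ± 1.32 TPM and the SNP mean 49.9 ± 6.58 TPM (SD, n = 3 each), with a log2 difference of 2.96 with a standard error of 0.17 and a limma adjusted p of 9.66e-05. The 95% interval ran from 5.88-fold to 10.3-fold. By increase on this scale *GLB1* ranked 126 among the 18966 tested genes. Between 278 and 2117 reads stood behind each value, so counting error was at most 6.0%. Fold changes on the log2(TPM + 0.5) scale slightly understate the change of low genes.

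*GLB2* encodes the class 2 phytoglobin, a related oxygen-binding protein, and lies at chr3:3276163-3277930 on the minus strand with 4 exons. It was at 36.3, 30.3 and 33.3 TPM in Mock and at 21.7, 20.8 and 23.2 TPM in SNP. All 3 SNP libraries were below all Mock libraries, opposite in direction to *GLB1*. The mean fell, from 33.3 ± 2.98 to 21.9 ± 1.21 TPM (SD, n = 3 each), a log2 difference of -0.59 with a standard error of 0.10, a 95% interval from -0.83 to -0.35 and a limma adjusted p of 0.0061. At 1.51-fold lower, *GLB2* sat just past the 1.5-fold limit of the second criterion. Its adjusted p was under 0.05 in all 16 alternatives but was under 1.5-fold in 4 of them, which were a pseudocount of 1, removal of a length trend, and leaving out Mock replicate 1 or SNP replicate 2.

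*GLB3* encodes a truncated hemoglobin of the bacterial type, at chr4:15765112-15767106 on the plus strand. Its values were 11.6, 9.66 and 12.4 TPM in Mock and 8.82, 9.19 and 8.27 TPM in SNP. The groups did not overlap, but the highest SNP library and the lowest Mock library were close together. The log2 difference was -0.33 with a standard error of 0.12 and a 95% interval from -0.63 to -0.04, and it missed the threshold with a limma adjusted p of 0.084. Without Mock replicate 2, the lowest of the Mock libraries, the difference was -0.43 with an adjusted p of 0.040.

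Because the phytoglobins moved in opposite directions, their shares of the phytoglobin transcripts in each library were compared. *GLB1* made up 13.4%, 12.8% and 9.50% of the summed phytoglobin TPM in the Mock libraries and 60.0%, 60.8% and 64.6% in the SNP libraries. *GLB2* went from 65.6%, 66.1% and 66.0% to 28.5%, 27.2% and 26.1%. *GLB1* was thus the least abundant phytoglobin in all 3 Mock libraries and the most abundant in all 3 SNP libraries, with *GLB2* the most abundant in Mock. The *GLB1* to *GLB2* ratio of TPM was 0.205, 0.194 and 0.144 in Mock and 2.11, 2.23 and 2.48 in SNP, with no overlap. This follows from the non-overlapping levels of *GLB1* and *GLB2* in opposite directions, so neither it nor its exact p is a separate result. A two-sided exact permutation test over the 6 libraries gave p = 0.1, the smallest value that 3 against 3 allows, so no ratio here could pass 0.05. The summed level of the 3 genes was 55.3, 45.8 and 50.5 TPM in Mock and 76.3, 76.4 and 89.0 TPM in SNP, and the mean sum in SNP was 1.59 times that in Mock.

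**Figure D2:**
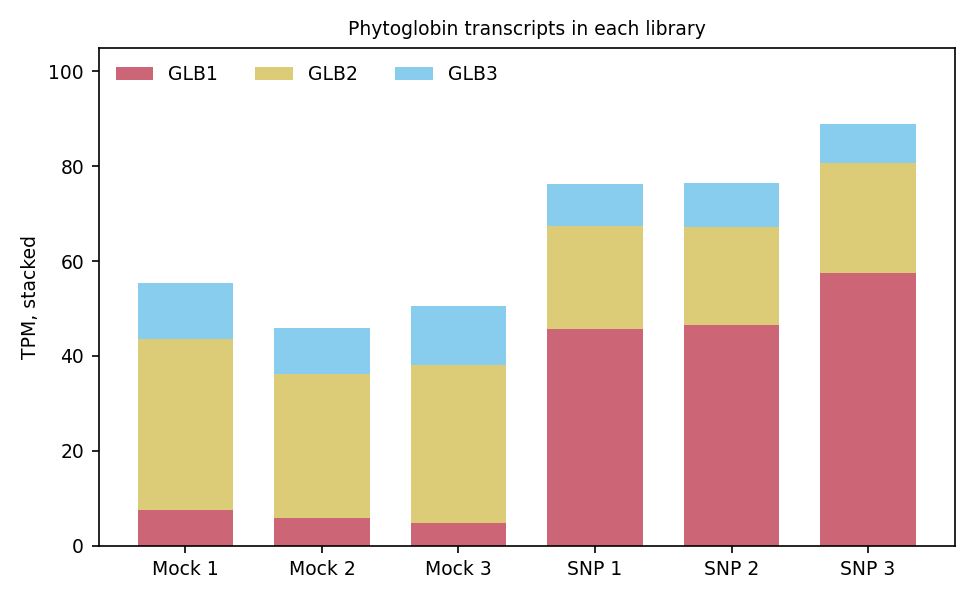
Stacked TPM of *GLB1*, *GLB2* and *GLB3* in each of the 6 libraries, on a linear axis from 0. *GLB1* takes 9.50% to 13.4% of each Mock bar and 60.0% to 64.6% of each SNP bar.

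Related genes can share reads, so the sequences of *GLB1* and *GLB2* were compared at the length of a read. Their coding sequences were 61.8% identical over 469 aligned bases, and no exonic stretch of 75 bases, the read length, was shared by any pair among the 3 phytoglobin genes. The windows of 75 coding bases in which *GLB1* and *GLB2* were most alike are shown because they are where a misplaced read would be most likely, and capitals mark the 24 bases that differ. Both windows are on the minus strand of TAIR10.1 and span an intron, at chr2:6983273-6983429 for *GLB1* and chr3:3277525-3277681 for *GLB2*.
GLB1: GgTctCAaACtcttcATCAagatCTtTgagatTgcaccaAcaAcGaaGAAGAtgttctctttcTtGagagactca
GLB2: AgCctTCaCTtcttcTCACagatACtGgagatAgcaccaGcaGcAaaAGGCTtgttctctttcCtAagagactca
The pairs with *GLB3* were less alike, with at least 37 differing bases in the closest window.

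*GSNOR* breaks down S-nitrosoglutathione, the main reservoir of bound NO, and the same enzyme oxidizes the formaldehyde adduct of glutathione. The gene lies at chr5:17684156-17686534 on the plus strand with 9 exons and was the most abundant of the 8 genes in every library. It was at 583.7, 459.0 and 465.7 TPM in Mock and at 498.4, 486.1 and 493.8 TPM in SNP. The SNP libraries lay inside the range of the Mock libraries, in which replicate 1 stood above the other two. The log2 difference was -0.02 with a standard error of 0.11 and an adjusted p of 0.91 (limma), and its 95% interval of -0.29 to 0.25 bounds the change that these libraries allow. The spread among the SNP libraries was small for this table, since only 4.13% of tested genes had a log2 SD in SNP at or below it.

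The nitrate reductase genes gave a different picture, with large differences between replicates of 1 group. *NIA1* and *NIA2* encode the cytosolic enzymes that reduce nitrate to nitrite with a molybdenum cofactor, and *NIA2* is known for most of the nitrate reductase activity of leaves. They lie far apart on chromosome 1, *NIA1* at chr1:29235721-29239484 on the minus strand with 4 exons and *NIA2* at chr1:14158452-14161938 on the plus strand with 3 exons. *NIA1* was at 9.59, 15.3 and 20.8 TPM in Mock and at 11.4, 16.7 and 20.8 TPM in SNP. The groups covered nearly the same range, and the log2 difference of 0.12 with a standard error of 0.31 was smaller than the spread between replicates (limma adjusted p = 0.798, 95% interval -0.62 to 0.86).

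*NIA2* was at 17.2, 33.3 and 63.5 TPM in Mock and at 53.9, 77.1 and 86.3 TPM in SNP. The lowest SNP library was below the highest Mock library, and the Mock libraries alone differed by 3.68 times. The mean was 38 ± 23.5 TPM in Mock and 72.4 ± 16.7 TPM in SNP (SD, n = 3 each). The log2 difference of 1.09 had a standard error of 0.44 and a 95% interval from 0.05 to 2.12, and it missed the threshold (limma adjusted p = 0.104). Its log2 SD in Mock was at the 99.2 percentile of all tested genes. Without Mock replicate 1, its lowest library, the difference was 0.62, and without Mock replicate 3 it was 1.55 with an adjusted p of 0.025.

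*NIR1* encodes the plastid enzyme that reduces nitrite to ammonium, at chr2:6810395-6812941 on the plus strand with 4 exons. It was at 32.3, 55.5 and 64.0 TPM in Mock and at 60.7, 74.8 and 93.3 TPM in SNP. Only Mock replicate 3 was above the lowest SNP library. The log2 difference of 0.62 had a standard error of 0.27, a 95% interval from -0.02 to 1.26 and a limma adjusted p of 0.127, and it was 0.33 without Mock replicate 1.

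Mock replicate 1 was the lowest Mock library for all 3 reductase genes. In that library the longest 20% of all genes had a median log2 deviation of -0.43 from the mean over libraries, against 0.04 to 0.14 in the other 5 libraries. The merged exons of *NIA1*, *NIA2* and *NIR1* are 3155, 3205 and 2193 bases long, whereas those of the phytoglobins are 989 to 1146 bases long. With this length trend removed the difference was -0.01 for *NIA1*, 0.95 for *NIA2* (limma adjusted p = 0.058) and 0.56 for *NIR1* (adjusted p = 0.073), and *GLB1* and *GLB2* kept an adjusted p under 0.05. The part of the length trend in the low reductase values of this library was not tested further.

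Ratios within a library do not carry a level that both genes share. The *NIA2* to *NIA1* ratio of TPM was 1.8, 2.17 and 3.05 in Mock and 4.72, 4.62 and 4.14 in SNP. The SNP libraries were above the Mock libraries without overlap, with an exact permutation p of 0.1, the smallest possible. *NIA1* relative to *NIR1* was at 0.297, 0.276 and 0.325 in Mock and at 0.188, 0.223 and 0.223 in SNP, again without overlap and with an exact p of 0.1. *NIA2* relative to *NIR1* was at 0.533, 0.599 and 0.992 in Mock and at 0.888, 1.03 and 0.925 in SNP, and these groups overlapped (exact p = 0.3). None of these ratios could pass 0.05 with 3 libraries a group. The *NIA2* to *NIA1* ratio equals the *NIA2* to *NIR1* ratio divided by the *NIA1* to *NIR1* ratio. They are therefore not separate results.

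**Figure D3:**
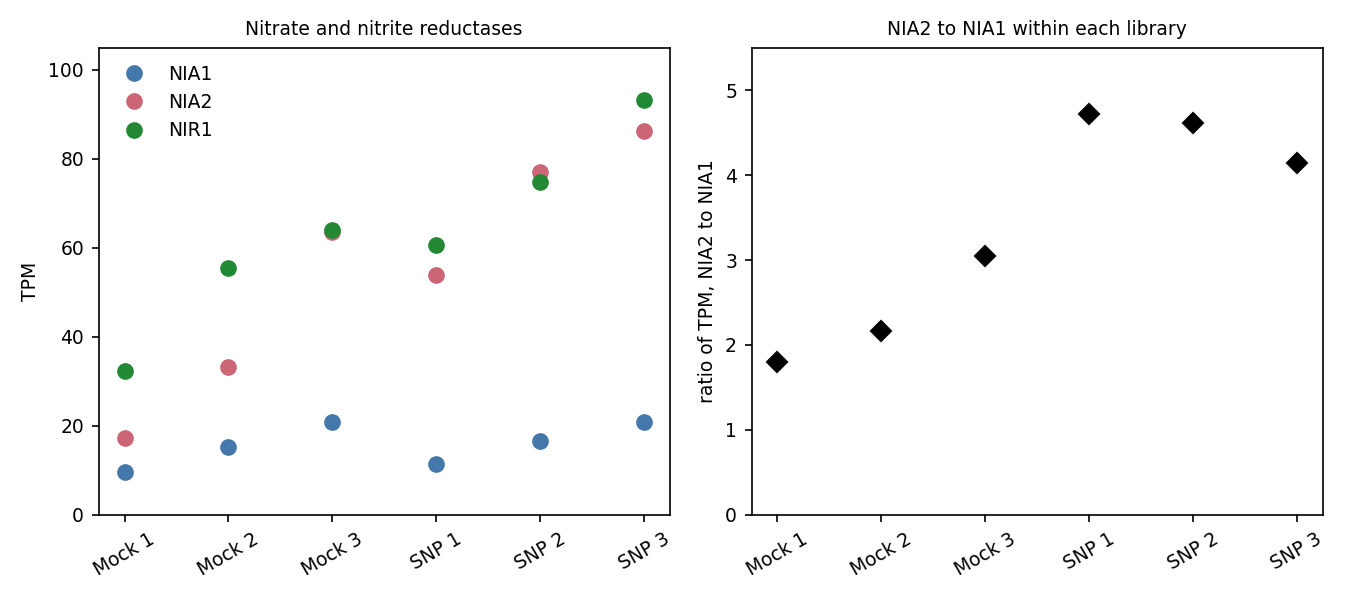
Left, TPM of *NIA1*, *NIA2* and *NIR1* in each library. Right, the ratio of *NIA2* to *NIA1* TPM in each library, which is at 1.8 to 3.05 in Mock and 4.14 to 4.72 in SNP although the levels on the left overlap between groups.

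The *NIA1* and *NIA2* coding sequences were 73.8% identical over 2724 aligned bases, closer than any phytoglobin pair. They shared no exonic stretch of 75 bases, and the longest run in common was 20 bases, aaggaacagaacatggtgaa. Their closest windows of 75 coding bases differ at 8 positions, marked in capitals, and are shown because the ratio above needs reads of this pair to be told apart. The *NIA1* window is at chr1:29236893-29236967 on the minus strand and the *NIA2* window at chr1:14160681-14160755 on the plus strand of TAIR10.1.
NIA1: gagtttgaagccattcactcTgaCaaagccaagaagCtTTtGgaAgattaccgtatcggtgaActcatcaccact
NIA2: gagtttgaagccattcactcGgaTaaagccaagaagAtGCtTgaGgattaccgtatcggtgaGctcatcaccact

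*NOA1* encodes a GTPase of the chloroplast that was first described as an NO synthase and is now known to lack that activity, although its mutants hold less NO. It lies at chr3:17483068-17486347 on the minus strand with 13 exons. Its values were 23.4, 29.5 and 32.2 TPM in Mock and 25.6, 31.5 and 27 TPM in SNP. The groups overlapped fully, with a log2 difference of -0.01, a standard error of 0.14 and a 95% interval from -0.35 to 0.33 (limma adjusted p = 0.965). Leaving out single libraries moved it from -0.14 to 0.09.

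**Figure D4:**
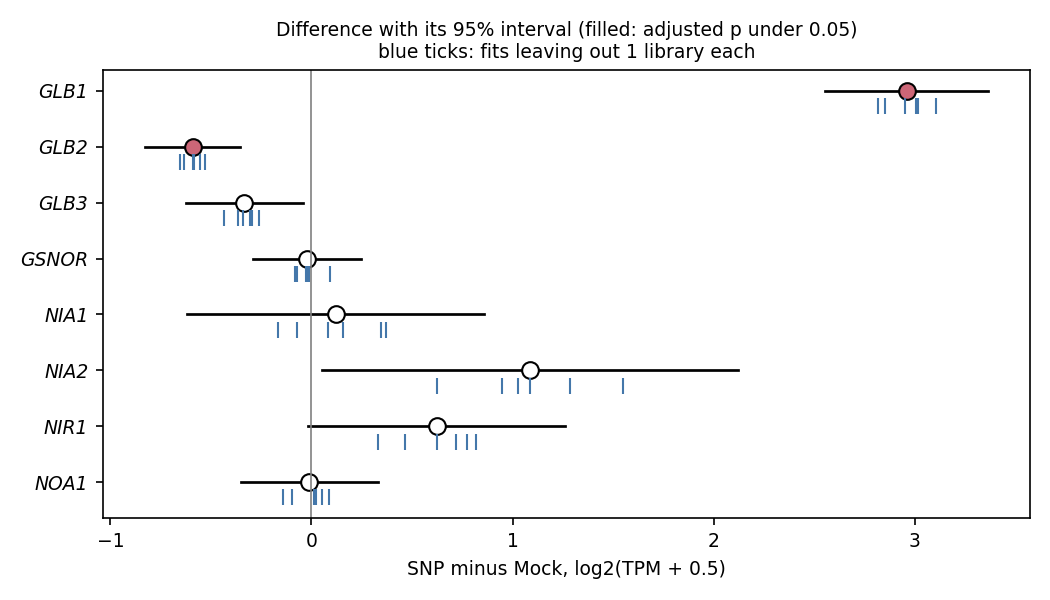
SNP minus Mock difference of each of the 8 genes on the log2(TPM + 0.5) scale, with its 95% interval, filled circles for an adjusted p under 0.05 and blue ticks for the fits that leave out 1 library each. Only *GLB1* at 2.96 and *GLB2* at -0.59 are filled, and the ticks of *NIA2* run from 0.62 to 1.55.

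In Mock the order of mean levels was *GSNOR*, *NIR1*, *NIA2*, *GLB2*, *NOA1*, *NIA1*, *GLB3* and *GLB1*. The ranges of neighbours in this order overlapped except between *GSNOR* and *NIR1*, between *NOA1* and *NIA1*, and between *GLB3* and *GLB1*. In SNP the order was *GSNOR*, *NIR1*, *NIA2*, *GLB1*, *NOA1*, *GLB2*, *NIA1* and *GLB3*, so *GLB1* moved from position 8 to position 4 while the first 3 kept their places. There the ranges of *NIR1* and *NIA2*, of *NIA2* and *GLB1*, and of *GLB2* and *NIA1* overlapped.

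The genes with the most similar profile over the 6 libraries were found by the root mean square difference of centred log2 values, as a description. *GLB1* was closest to AT1G66480 at 0.128 and to *PCR2* at 0.138, and 31 genes lay within 0.25 of it. *NIA2* had the fewest neighbours, with 4 genes within 0.25, led by the transcription factor gene *ERF104* at 0.214 and by *SNG1*, which encodes an enzyme of sinapate ester synthesis, at 0.243. *NIA1* was closest to the proline transporter gene *ProT3* at 0.124 and to *ACS6*, an ethylene synthesis gene, at 0.137, with 257 genes within 0.25. *NIR1* was closest to AT5G46730 at 0.073 and *SCPL13* at 0.077, with 941 genes within 0.25. The flat or weakly changed profiles of *GLB2* (AT2G28080 and AT1G16445), *GLB3* (AT1G69526 and *PSK3*), *GSNOR* (*NFU4* and *DAC*) and *NOA1* (AT4G33500 and *LUT2*) each had between 3951 and 9224 genes within 0.25.

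The 250 bases upstream of each of the 8 genes were searched on both strands for the core of the nitrate-responsive element (GACNCTT followed after 10 bases by AAG), the TGA factor core TGACG, the G-box CACGTG and the WUS homeodomain motif TTAATGG. None of the 4 was found in any of the 8 windows. Over 24182 upstream windows of the same length, 0.124%, 19.1%, 6.90% and 7.20% held them. The absence says only that these letters are not in these windows.

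Around the 8 genes, 9 lists of pathway genes held 71 genes, of which 68 had a row and 61 were tested. Of these, 29 were higher in SNP (47.5%, beside 16.6% of all tested genes) and 3 lower (4.92%, beside 13.0%), all by the limma adjusted p under 0.05. The lists were written with earlier results of these data known, so these shares are a description.

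Upstream of the reductases, 6 of 8 tested nitrate transport genes were higher and none lower, with a median difference of 1.39 on the log2 scale. These counts stood beside 16.6% of all tested genes that were higher and 13.0% that were lower, and are a description. *NRT1.8*, which unloads nitrate from the xylem, rose from a mean of 4.57 to 40.4 TPM, a log2 difference of 3.02 (limma adjusted p = 0.000103). *NRT3.1*, the partner protein of high-affinity nitrate transporters, rose from 2.06 to 11.3 TPM. The *NRT2* transporter genes with a row were named after their values were seen. Of these, *NRT2.1* and *NRT2.5* were below the filter on low values. *NRT2.6* was at 2.76 TPM in Mock and 2.14 TPM in SNP and did not pass, and *NRT2.7* rose from 6.76 to 15.7 TPM. *NRT1.7*, which loads nitrate into the phloem, rose from 35.1 to 109.5 TPM, and *NRT1.2*, a low-affinity transporter, rose from 17.7 to 54.1 TPM. The nitrate sensor gene *NRT1.1*, named here after its values were seen, was at 1.67 TPM in Mock and 1.13 TPM in SNP and did not pass.

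Among the regulators of the nitrate response, 11 of 18 tested genes were higher and none lower, with a median of 0.56. Over all tested genes, 16.6% were higher and 13.0% lower. *BT2*, a nitrate-responsive scaffold protein gene, rose from 10.9 to 96.6 TPM with a log2 difference of 3.19 and a standard error of 0.43 (limma adjusted p = 0.0026). The repressor genes *HHO3*, *LBD37* and *HHO2* rose by 1.58, 1.43 and 1.18 on the log2 scale. *HHO3* was at 2.85, 9.43 and 7.81 TPM in Mock, Mock replicate 1 again being the lowest, and 18.5, 20.6 and 18.1 TPM in SNP. Leaving out any 1 SNP library moved its adjusted p over 0.05, to between 0.063 and 0.069, and leaving out SNP replicate 3 put *LBD37* at 0.061. *NRG2* was at 48.7 TPM in Mock and 61.9 TPM in SNP and did not pass. Without Mock replicate 1 the count higher was 13.

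Downstream of *NIR1*, 3 of 13 tested ammonium assimilation genes were higher and 2 lower, with a median of 0.12. These counts stood beside 16.6% and 13.0% of all tested genes, and are not a result about the list. *ASN1*, the asparagine synthetase gene known to respond to darkness and sugar shortage, was at 2.07, 11.0 and 1.79 TPM in Mock and at 100.7, 314.3 and 113.5 TPM in SNP. The groups were far apart, and replicate 2 was the highest library in each (log2 difference 5.24, standard error 0.69, limma adjusted p = 0.00238). *GDH1*, a glutamate dehydrogenase gene, rose from 60.1 to 124.3 TPM. The other gene that rose was *GLT1*, a glutamate synthase gene, from 84.2 to 156.1 TPM, and the genes that fell were *GLN1;4*, from 5.67 to 3.39 TPM, and *ASN3*, from 49.4 to 30.5 TPM, all 3 named after their values were seen. The main glutamine synthetase genes did not pass, *GLN2* of the plastid being at 338.9 and 365.0 TPM and *GLN1;1* of the cytosol at 227.3 and 246.9 TPM.

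Nitrate reductase needs the molybdenum cofactor. Of 8 tested genes for this cofactor and for molybdate, 4 were higher and none lower, beside 16.6% and 13.0% of all tested genes. By the 1.5-fold criterion 2 were higher. The 8 included the molybdate transporter gene *MOT1* and *ABA3*, whose enzyme modifies the cofactor for enzymes other than nitrate reductase. Neither passed, and both were named after their values were seen. *CNX2*, which acts in the first step of its synthesis, rose from 18.4 to 36.3 TPM, a log2 difference of 0.96 (limma adjusted p = 0.000565). *CNX1*, which inserts the molybdenum, rose from 23.6 to 37.1 TPM and *CNX6*, a subunit of molybdopterin synthase, from 34.4 to 47.0 TPM. The remaining gene that rose, *CNX7* of the same synthase, went from 29.7 to 38.8 TPM and was named after its values were seen. *CNX6* was at an adjusted p of 0.058 without SNP replicate 3. *CNX5*, which recharges that synthase with sulfur, was at 40.1 and 46.2 TPM and did not pass. Nitrite reductase needs siroheme, and neither of its synthesis genes passed, *UPM1* being at 50.4 and 83.0 TPM (limma adjusted p = 0.054) and *SIRB* at 20.1 and 22.7 TPM. The adjusted p of *UPM1* was under 0.05 with the length trend removed (0.025), with median-of-ratios scaling (0.043), with 75th percentile scaling (0.049) and without Mock replicate 3 (0.043).

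The amidoxime reducing component makes NO from nitrite together with nitrate reductase in the alga *Chlamydomonas*. Of its *Arabidopsis* genes, AT5G44720 was at 89.0 TPM in Mock and 70.3 TPM in SNP, with a limma adjusted p of 0.054, and AT1G30910 was at 25 and 26.9 TPM. Without Mock replicate 1 the difference of AT5G44720 was -0.25 with an adjusted p of 0.048, and without Mock replicate 2 it was -0.42 with an adjusted p of 0.030. With the length trend removed the adjusted p of AT5G44720 was 0.037. The tested relative of *NOA1*, AT4G10620, was at 25.1 and 20.7 TPM and did not pass. Its adjusted p was 0.024 without Mock replicate 1 (difference -0.33). It was 0.029 and 0.039 when libraries were scaled by their 75th percentile or by median-of-ratios, and 0.025 after the length correction. Its counterpart in the list had no row.

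On the side of removal, a list of *GSNOR* partners in glutathione and formaldehyde metabolism also held the alcohol dehydrogenase gene *ADH1*, which belongs to neither. Of its 5 tested genes, with *ADH1* counted, 4 were higher and none lower, with a median of 0.63. These counts stood beside 16.6% of all tested genes that were higher and 13.0% that were lower. *FDH*, the formate dehydrogenase gene that acts at the end of formaldehyde oxidation, was at 21.8, 22.5 and 20.9 TPM in Mock and at 148.5, 231.6 and 189.5 TPM in SNP. Its groups were far apart, with a log2 difference of 3.07 and a standard error of 0.16 (limma adjusted p = 5.80e-05). The glutathione synthesis genes *GSH1* and *GSH2* rose by 0.55 and 0.63 on the log2 scale, and the alcohol dehydrogenase gene *ADH1*, known for its response to low oxygen, rose from 35.4 to 75.4 TPM. *GSH1* was at an adjusted p of 0.051 with the length trend removed. *SFGH*, whose enzyme follows *GSNOR* in formaldehyde oxidation, was at 125.3 and 152.6 TPM and did not pass. Of the formaldehyde oxidation genes in the list, *FDH* thus rose and *SFGH* did not pass, while *GSNOR* itself was at -0.02. A test of the difference between *GSNOR* and each partner was not made.

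Thioredoxins remove NO from protein thiols, and of 4 tested genes for this system 1 was higher and 1 lower. With 16.6% and 13.0% of all tested genes higher and lower, these counts are not a result about the list. *TRX5*, a cytosolic thioredoxin gene, rose from 104.2 to 215.3 TPM (log2 difference 1.05, limma adjusted p = 0.00387). *NTRB*, a thioredoxin reductase gene, fell from 28.3 to 18.3 TPM, and its adjusted p was 0.061 without SNP replicate 1 and without SNP replicate 3. *TRX3*, the most abundant of the list, was at 544.1 and 472.4 TPM and did not pass.

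**Figure D5:**
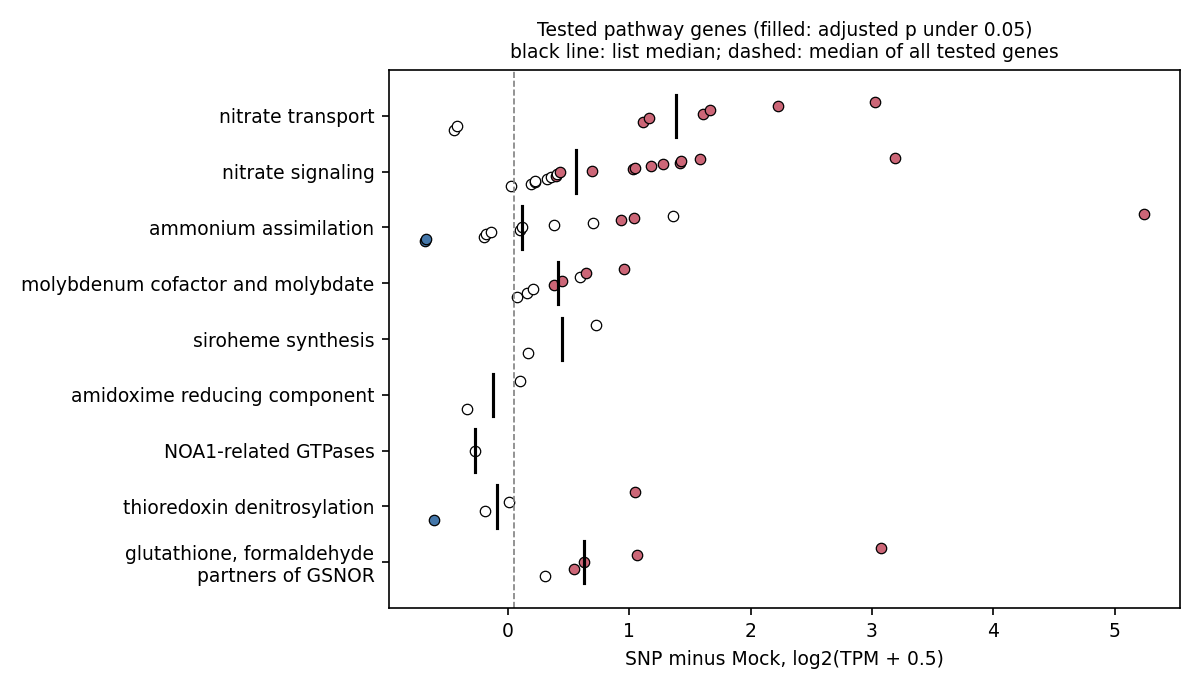
SNP minus Mock difference on the log2(TPM + 0.5) scale of the 61 tested genes in the 9 pathway lists, 1 circle per gene, filled red or blue where the adjusted p was under 0.05 in the higher or lower direction, with a black line for the median of each list and a dashed line for the median of all tested genes. The nitrate transport list has the highest median, at 1.39, and the circle farthest right is *ASN1* at 5.24.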

How the data were processed

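Strand-specific libraries of polyadenylated RNA were sequenced by the authors with 75-base reads and aligned with STAR to TAIR10, and the authors deposited TPM values for 24340 genes, 1 column per library. The counting tool, gene lengths and gene filter are not given in the sources used here. The deposited log2 fold changes, p-values and adjusted p-values of the authors' own comparison were not used. TPM multiplied by merged exon length of TAIR10.1 was a whole multiple of a step per library, within 0.05, for 99.4% of values, and these steps gave the read totals. Genes averaging 0.5 TPM or more over the 6 libraries entered a limma 3.58.1 fit (R 4.3.3) of log2(TPM + 0.5) on group, without a block, in which eBayes took the prior variance as a trend on mean level. P-values were adjusted by the Benjamini-Hochberg method. No count model was run. The procedure was tested on simulated data. Ratios were compared by two-sided exact permutation tests. The limma p-values set a group difference against the spread between these samples, moderated over all tested genes. The exact p-values give the share of relabelings of the samples with a difference at least as large. The 8 genes, the lists and the tests were chosen with earlier results of these data known. All 8 genes are named. From each list the genes named are those among its 3 largest differences with an adjusted p under 0.05 and its 2 most abundant genes. For each of the 8 genes the 2 nearest profiles are named. Alternatives covered the pseudocount, the low filter, scaling, the variance model, a length correction, the replicate block and leaving out each library. Those for the pathway genes were chosen after seeing the data. Python 3.11.15, numpy 2.4.6 and pandas 2.3.3 were used.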

Additional observations from a re-analysis of the deposited data

How the results depend on the processing

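An alternative was compared 204 times with the main result for the 8 genes, their ratios, or counts among the 8 or over all tested genes. Of these, 187 were the same. Of the rest, 4 became weaker, 5 stronger and 8 reversed, and the cause was not tested. The 4 that became weaker were counts over all tested genes and not results of the 8 genes. They were the count at a 2-fold limit and the adjusted p counts without SNP replicate 1, 2 or 3. For a gene, the same meant an unchanged sign and side of the adjusted p threshold. For a count it meant a change within 1.5-fold, and for a ratio an unchanged sign. *GLB1* passed the adjusted p in all 16 alternatives (2.82 to 3.11, highest adjusted p 0.00097, limma), as did *GLB2* (-0.68 to -0.53, highest 0.034). A limit of 2-fold in place of 1.5-fold left 1474 of 3205 genes. Leaving out each library in turn gave 2883 to 7924 genes by adjusted p (5619 with all 6), 2724 to 3339 by the 1.5-fold criterion and 2 or 3 of the 8 genes. It gave -0.43 to -0.26 for *GLB3*, -0.081 to 0.092 for *GSNOR*, -0.17 to 0.37 for *NIA1*, 0.62 to 1.55 for *NIA2*, 0.33 to 0.82 for *NIR1* and -0.14 to 0.086 for *NOA1*. The sign changed for *GSNOR* without Mock replicate 1 (0.092), for *NIA1* without Mock replicate 1 (-0.17), without SNP replicate 3 (-0.072) and with the length trend removed (-0.013), and for *NOA1* without Mock replicates 2 (0.025) or 3 (0.086) or SNP replicates 1 (0.051) or 3 (0.014). The log2 ratios ranged over 3.41 to 3.64 for *GLB1* to *GLB2*, -1.18 to -0.79 for *NIA1* to *NIA2*, and 0.10 to 0.42 for *NIA1* plus *NIA2* to *NIR1*. Over all tested genes, same-numbered libraries did not pair consistently, with correlations of their deviations of 0.30, -0.0017 and -0.091. *NIA1*, *NIA2* and *NIR1*, however, each rose from replicate 1 to replicate 3 in Mock and in SNP. No label ties a replicate number to a shared batch, and whether the numbers pair these values was not tested. With a replicate block 4 of the 8 genes passed in place of 2, *NIA2* (1.09, adjusted p 0.013) and *NIR1* (0.62, adjusted p 0.013) being added, with 5490 genes by adjusted p and 3457 by the criterion, and *UPM1* (adjusted p 0.0091) and AT5G44720 (adjusted p 0.047) passed too. The median of all genes was 0.056, and 0.003, -0.031 and 0.007 under median-of-ratios scaling, 75th percentile scaling and length correction. Of the criterion genes 62.1% were higher, and 51.1% with 75th percentile scaling. Of 768 comparisons of pathway genes and lists, chosen after seeing the data, 728 were the same by these rules, 13 became weaker and 27 stronger. With 3 libraries a group the intervals of *NIA1* and *NIA2* remained wide. Between 1213 and 11925 reads per library stood behind their values, so counting error was at most 2.87% for *NIA1* and 2.13% for *NIA2*. The log2 SD of *NIA1* was 0.54 in Mock and 0.42 in SNP, and that of *NIA2* 0.93 and 0.35. The part of counting error in the width of the intervals was not tested.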
